A study of Mus musculus with 54 samples.

Results

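The windows described here are the distal, telomere-proximal 5 Mb of the 19 mouse autosomes. They are the 50 kb windows of chromosomes 1 to 19 whose end lay within 5 Mb of the last measured window end of their chromosome. The rule used positions alone and no timing value. It gave 1719 of the 43941 autosomal windows, which is 89.6% of the 1919 window positions in that span, from 41 windows on chromosome 19 to 101 on chromosomes 8 and 10. The span held 1108 protein-coding genes, or 11.6 per Mb, and 62.4% of its windows held the midpoint of no coding gene, against 70.8% of the other autosomal windows. Because the mouse centromere lies at the opposite end of each autosome, every distal end faces a long-arm telomere. "The end" below means the end of the last measured window, and 16 coding genes lay beyond it.

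Timing came from Repli-Seq: cells labelled with BrdU are sorted by DNA content into an early and a late fraction of S phase, and the newly replicated DNA in both is sequenced. The cells were F1 hybrids, so each of 27 profiles (54 libraries) has 1 track for each of its 2 alleles, as the log ratio of early over late signal on mm10. Values above 0 mean more signal in early S phase, and the timing of a window is here the mean of both alleles. No source used here states the log base, and the values are read as log2.

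The embryonic stem cell (ESC) lines were 129 by cas hybrids: F121 (1 profile), F121-6 (4 profiles), F121-9 (4 profiles) and Cas129 (2 profiles), labelled female, and F123 (2 profiles), labelled male. All were grown in 2i, a serum-free medium with MEK and GSK3 inhibitors and LIF, except that F121-6 and F121-9 had 2 profiles each in 2i and 2 on mitomycin-C-inactivated fibroblast feeders. Neural precursor cells (NPCs) at day 11 of differentiation came from 2 of these lines, F121-9 with 1 profile and Cas129 with 2, so both NPC lines also belong to the ESC group. There were 4 embryos behind the fibroblasts (MEFs), each with 2 profiles. Embryos 1 and 2 are labelled female and embryos 3 and 4 male, and their cross is labelled cas first, as for Cas129, while the other ESC lines have 129 first. V6.5 ESCs (C57B6/129, male, 1 profile) and 1 line of extraembryonic endoderm (XEN) cells (C57B6/cas, female, 2 profiles) entered no test. Profiles of a line or embryo were averaged first, so the spread given is that between lines or embryos, and p-values measure that spread. The comparison of culture media is the exception, as it was fitted on single profiles.

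Some facts of the whole series touch these results. Embryos 1 and 3 did not match their labelled sex: the X track of the 129 allele had an SD of 0.28 in embryo 1 and 0.23 in embryo 4, against 1.33 in embryos 2 and 3, and the male F123 line had such a flat track on its Cas allele (0.18). Several results that rest on the MEFs are therefore also given without embryos 1 and 3. Levels, allelic shares, gene list counts and single-gene differences are given with all 4 embryos. V6.5, also labelled male, had no flat X track, with an SD of 2.27 on both alleles. Whether its label or the separation of its 2 alleles is at fault was not tested, and its allelic values carry that limit. The deposited columns fell into 2 sets by autosomal mean, with a median of -0.60 in ESCs, NPCs and V6.5 and -0.14 in MEFs and XEN cells. The median MEF minus ESC difference over all autosomal windows was 0.38 as deposited, -0.26 after centring each column on its median and -0.06 after quantile normalization. Differences between MEFs and ESCs are therefore read against that shift. Most counts of MEF minus ESC calls are also given under other scalings. Levels and differences of single genes, regions, ends and distance bins are as deposited. On average the windows of 6 pluripotency genes were early in ESCs (mean 2.12, against -0.85 in NPCs and -0.83 in MEFs). The mean of 5 fibroblast genes was earliest in MEFs (1.49, against -1.21 in ESCs). That of 5 neural genes was earliest in NPCs (0.77) and that of 4 endoderm genes in XEN cells (2.49). Single genes departed from these means. Pou5f1 (3.23, ESCs 2.48), Nes (3.51, NPCs 3.41) and Gata4 (2.26, XEN cells 2.23) were earliest in MEFs. Fap (0.25, MEFs -0.71) and Fabp7 (0.38, NPCs -1.89) were earliest in XEN cells. The other genes were earliest in the cell type they mark. Repeat profiles of 1 line correlated over the distal windows at 0.949 to 0.996 in timing and at 0.297 to 0.791 in the difference between alleles. Neighbouring distal windows correlated at 0.994 in ESC timing and 0.972 in the ESC allelic difference (n = 1636 pairs), so windows are not independent.

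Mammalian chromosomes replicate in large domains, and early domains are generally rich in genes and active chromatin. Telomeres end each chromosome in repeats of TTAGGG bound by the shelterin proteins, and the DNA next to them can take on the chromatin state of the telomere. In many species the timing of chromosome ends differs between ends and between cell types.

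The genes next to the end that carry the results are shown by the 250 bases before their annotated start (RefSeq, GRCm38.p6), with CG dinucleotides in capitals. They were chosen, after their values had been seen, to contrast a gene family cluster, a gene in a last window, a housekeeping gene and a gene whose timing did not differ. Vmn2r87 encodes a vomeronasal receptor, the chemosensory receptors of the vomeronasal organ. Its start lies 0.1 Mb from the end of chromosome 10 (chr10:130497380-130497629, minus strand), and its promoter had 0 CG dinucleotides and 35.6% G and C. Gm20939 is a predicted gene in the last window of chromosome 17 (chr17:94864651-94864900, plus strand), with 5 CG. Polr3k encodes a subunit of RNA polymerase III and lies 0.1 Mb from the end of chromosome 2 (chr2:181864110-181864359, plus strand), with 14 CG. Fgf3 encodes a secreted fibroblast growth factor and lies 0.25 Mb from the end of chromosome 7 (chr7:144838362-144838611, plus strand), with 4 CG.
Vmn2r87: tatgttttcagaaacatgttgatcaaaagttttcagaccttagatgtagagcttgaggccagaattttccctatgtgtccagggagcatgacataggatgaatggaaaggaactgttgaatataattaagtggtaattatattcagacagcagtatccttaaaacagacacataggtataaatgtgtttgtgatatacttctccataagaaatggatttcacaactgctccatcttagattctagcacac
Gm20939: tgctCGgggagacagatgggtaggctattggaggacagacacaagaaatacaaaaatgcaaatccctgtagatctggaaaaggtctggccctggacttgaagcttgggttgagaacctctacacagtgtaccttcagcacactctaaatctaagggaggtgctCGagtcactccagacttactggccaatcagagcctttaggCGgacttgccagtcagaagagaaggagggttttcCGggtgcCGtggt
Polr3k: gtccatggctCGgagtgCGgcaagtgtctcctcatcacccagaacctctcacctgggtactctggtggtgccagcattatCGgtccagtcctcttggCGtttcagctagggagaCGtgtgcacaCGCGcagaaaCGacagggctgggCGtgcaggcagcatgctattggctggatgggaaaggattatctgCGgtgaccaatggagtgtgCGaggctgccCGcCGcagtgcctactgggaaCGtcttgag
Fgf3: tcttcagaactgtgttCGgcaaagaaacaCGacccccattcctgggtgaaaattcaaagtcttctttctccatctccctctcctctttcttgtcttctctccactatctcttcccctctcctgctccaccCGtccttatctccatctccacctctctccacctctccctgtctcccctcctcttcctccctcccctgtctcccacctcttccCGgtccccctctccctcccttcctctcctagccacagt

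None of these 4 promoters held TTAGGG on either strand (no overlap with another motif was counted). Of the 99 coding genes in the last 0.5 Mb, 79 had a promoter in the RefSeq table, and 8 of these (10.1%) held the motif, against 8.41% of the 832 matched promoters of all distal windows and 9.22% of 25748 autosomal ones of the same length. The median promoter of the last 0.5 Mb had 8 CG, that of all distal windows 12 and that of all autosomal genes 6. Unlike the distal sets, the autosomal set was not limited to coding genes, so neither comparison with it is like for like.

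The last window of most autosomes replicated early in ESCs and later in MEFs. Averaged over the 19 ends, it lay at 1.92 in F121, 2.15 in F121-6, 1.74 in F121-9, 2.21 in F123 and 2.13 in Cas129. In the MEFs the same mean was -0.24, -0.12, -0.12 and -0.36 for embryos 1 to 4. The lines and embryos did not overlap. Of the 19 last windows, 13 lay at 2 or above in the ESC mean, a level reached by 29.4% of distal and 20.01% of other autosomal windows, and the ESC means ran from -0.04 on chromosome 12 to 2.66 on chromosome 7. In MEFs 10 of the 19 lay below 0 and 1 reached 2. V6.5 ESCs, with other parents, had a mean of 2.14 with 15 ends at 2 or above, and XEN cells one of 1.36 with 4. The last windows were singled out after values near the ends had been seen.

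Tested in the limma fit over all autosomal windows (a change of 1 or more at an adjusted p under 0.05), 18 of the 19 last windows were lower in MEFs than in ESCs and 0 were higher, against 13.7% called lower over all windows tested. The count was also 18 under median centring and under quantile normalization, where 28.4% and 22.3% of all windows were called lower. It stayed at 18 with the line as a random block, with 2i profiles only, without embryos 1 and 3 and without any 1 line or embryo. At 17 of these 18 ends each ESC line lay above each MEF embryo, and on chromosome 11 the F121-9 ESCs (1.28) lay below embryo 3 (1.39). The 18 had already been picked by the call, and no share of such windows over all autosomes was taken. The 17 are therefore a description and no separate support. The differences ran from -3.51 on chromosome 10 to -1.12 on chromosome 19. The exception was chromosome 7, at 3.09, 2.22, 2.43, 2.88 and 2.68 in the ESC lines (F121, F121-6, F121-9, F123, Cas129) and 3.22, 3.58, 3.36 and 3.50 in the MEFs, where the difference was 0.76. The latest last windows in MEFs were those of chromosomes 14 (ESC 0.84, MEF -2.56) and 12 (ESC -0.04, MEF -2.35).

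**Figure D1:**
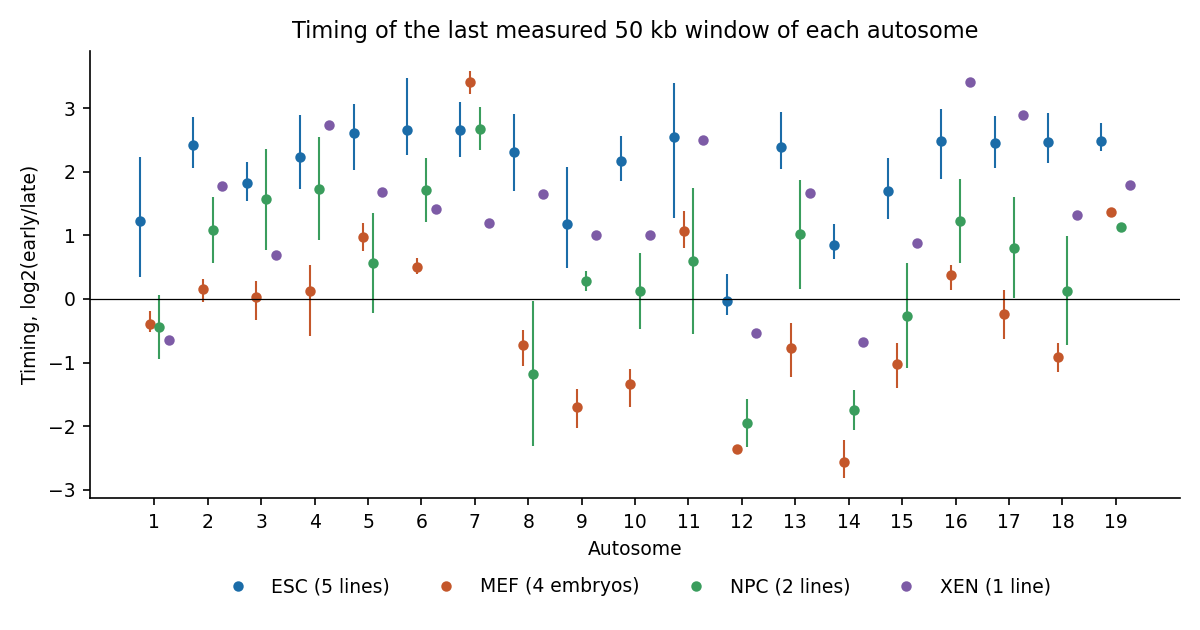
Timing (log ratio of early over late, read as log2) of the last 50 kb window of each of the 19 autosomes. Points are means of the ESC lines, NPC lines and MEF embryos, with bars that span their range, and the single XEN line has no bar. The ESC points lie above the MEF points at every end except that of chromosome 7.

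At Vmn2r87 the timing was 0.85, 2.66, 1.31, 1.60 and 1.64 in the ESC lines in the same order and -1.93, -1.94, -1.85 and -1.93 in the MEFs. The MEFs were alike and the ESC lines spread, but the groups did not overlap, and the difference was -3.52 (SE 0.318, limma adjusted p = 5.3e-08). NPCs lay between, at -1.63 (F121-9) and -0.12 (Cas129), and XEN cells were at 0.72.

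Gm20939, in the last window of chromosome 17, was at 2.30, 2.48, 2.53, 2.06 and 2.88 in the ESC lines and at -0.22, 0.14, -0.22 and -0.63 in the MEFs, a difference of -2.68 (SE 0.270, limma adjusted p = 1.94e-07). XEN cells had 2.90 there, close to the ESC lines. Its neighbour Mettl4, which encodes a methyltransferase and lies 0.15 Mb from the end, ran from 1.67 to 2.74 in ESCs and from -1.99 to -1.44 in MEFs.

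Polr3k showed a smaller difference between groups that did not overlap: 1.95, 1.92, 1.93, 1.95 and 2.57 in the ESC lines and 0.90, 1.01, 0.84 and 0.42 in the MEFs (-1.27, SE 0.185, limma adjusted p = 1.28e-05). Fgf3 was early in both, at 2.76, 1.91, 2.67, 3.06 and 2.84 in the ESC lines and 2.74 to 2.999 in the MEFs (0.22, SE 0.201, limma adjusted p = 0.333).

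NPCs were less uniform. The mean over the 19 last windows was -0.10 in F121-9 NPCs (1 profile) and 1.06 in Cas129 NPCs, against 1.74 and 2.13 in the ESCs of the same lines. NPCs were called lower than ESCs in 14 of the 19 last windows and higher in 0 (background 16.1% lower). The count was 8 without the F121-9 NPCs, 17 without the Cas129 NPCs and 12 with the replicate number as a block, so its size rested on which NPC line was used. NPC minus ESC and MEF minus ESC share the ESC lines. The fit did not pair NPCs with the ESCs of their own lines. It pooled the spread over ESCs, NPCs and MEFs, so its p-values do not measure the spread between the NPC lines alone.

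The first window of each autosome, next to the centromere, had means of -0.57 in ESCs, -1.50 in NPCs, -1.19 in MEFs and -0.15 in XEN cells. Single first windows ran from -4.24 to 2.81 in ESCs, and 6 of the 19 lay above 0 in ESCs, 3 in NPCs, 5 in MEFs and 9 in XEN cells. Of these 19 windows, 6 were called lower in MEFs than in ESCs (10 after median centring), 10 were lower in NPCs, and 0 were higher in either. Of all windows 13.7% were called lower in MEFs as deposited, 28.4% in MEFs after median centring and 16.1% in NPCs. Lower timing in MEFs and NPCs was thus also called at part of the centromeric ends, from a later ESC level.

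Away from the end the early ESC signal fell off within 0.5 Mb. By 50 kb step the ESC mean over the ends measured was 2.03, 1.69, 1.55, 1.22, 1.05, 0.88, 0.64, 0.59, 0.32 and 0.02, and -0.05 at 0.5 Mb. The MEF mean stayed between -0.49 and 0.29 over those steps. Between 12 and 19 of the ends had a measured window at each step, and 151 of 190 possible windows (79.5%) were measured in the last 0.5 Mb.

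Averaged over chromosomes, the last 0.5 Mb lay at 0.88, 1.02, 0.84, 1.06 and 1.31 in the ESC lines (F121, F121-6, F121-9, F123, Cas129) and at 0.01, 0.02, 0.02 and -0.17 in the MEFs. The next 0.5 Mb lay at -0.39, -0.46, -0.38, -0.29 and -0.23 in the ESC lines and at 0.20, 0.18, 0.20 and 0.14 in the MEFs. As deposited, these means over ends were lower in MEFs than in ESCs in the last stretch and higher in the next, with no overlap in either. Single ends varied. In the last 0.5 Mb each ESC line lay above each embryo at 11 of 19 ends and below each at 3, and they overlapped at 5. No like count was taken for other stretches. Median centring moves MEFs down against ESCs by more than the second gap, while the step within a profile does not depend on it. The last 0.5 Mb minus the next was 1.37 ± 0.14 (SD, n = 5 lines) in ESCs and -0.21 ± 0.07 (SD, n = 4 embryos) in MEFs, and the difference of -1.58 gave an exact two-sided permutation p of 0.0159 (0.0265 adjusted over 5 measures), the smallest that 5 against 4 allow. Without embryos 1 and 3 it was -1.61, and the smallest possible p was then 0.0952. This step had been noticed in these data before it was tested, and the adjustment does not cover that choice. The step was 0.31 in Cas129 NPCs, -0.02 in F121-9 NPCs, 0.61 in XEN cells and 1.02 in V6.5. It was above 0 at 14 of 19 ends in ESCs and at 9 in MEFs.

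**Figure D2:**
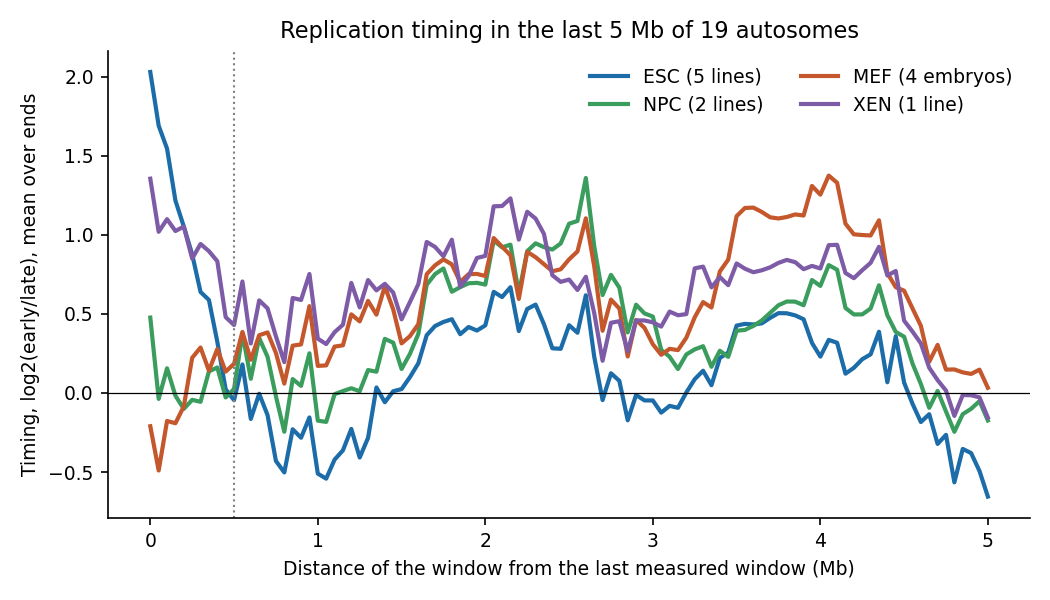
Timing, averaged over chromosome ends at each 50 kb step, against the distance from the last measured window, in Mb, for ESC lines, NPC lines, MEF embryos and XEN cells. The ESC lines stand at 0.84 to 1.31 in the last 0.5 Mb and at -0.46 to -0.23 in the next 0.5 Mb. The MEF mean over ends changes little between the same bins, though single ends step by -2.67 (chromosome 15) to 2.03 (chromosome 3).

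Farther in, as deposited, MEFs and XEN cells lay above ESCs in every bin. The ESC mean was -0.16 at 1 to 2 Mb, 0.22 at 2 to 3 Mb, 0.28 at 3 to 4 Mb and 0.02 at 4 to 5 Mb. The MEF mean over the same bins was 0.39, 0.67, 0.90 and 0.50, the NPC mean 0.14, 0.71, 0.46 and 0.17, and the XEN mean 0.53, 0.71, 0.76 and 0.38. All cell types were latest beyond 20 Mb, at -0.65, -0.68, -0.22 and -0.21 in ESCs, NPCs, MEFs and XEN cells. At the 5 Mb limit, the 182 windows just inside (4.5 to 5 Mb) lay at -0.34 in ESCs and 0.22 in MEFs, and the 173 just outside (5 to 5.5 Mb) at -0.28 and 0.31.

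The distal windows replicated earlier than the rest of the same chromosomes in each line and embryo. The distal mean was 0.17, 0.05, 0.15, 0.17 and 0.27 in the ESC lines (same order) against -0.58, -0.60, -0.59, -0.62 and -0.59 for all other windows. In the MEFs it was 0.59, 0.64, 0.64 and 0.60 against -0.17, -0.11, -0.12 and -0.17. The difference was 0.76 ± 0.08 (SD, n = 5) in ESCs and 0.76 ± 0.01 (SD, n = 4) in MEFs, above 0 in 9 of 9 (exact two-sided sign-flip permutation p = 0.0039, adjusted 0.0098). NPCs had 0.97 (n = 2), XEN cells 0.81 and V6.5 0.83. MEF minus ESC was 0.0006 with an exact permutation p of 1, which covers stretches of opposite sign: within 2 Mb of the end it was -0.28 (p = 0.0159), and without the last 500 kb it was 0.13 (p = 0.0159).

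Against the proximal 5 Mb, next to the centromere, the distal windows were earlier by 0.66 ± 0.11 (SD, n = 5) in ESCs, 1.09 ± 0.01 (SD, n = 4) in MEFs, 1.40 in NPCs and 0.89 in XEN cells. This held in 9 of 9 lines and embryos (exact sign-flip permutation p = 0.0039), and MEFs exceeded ESCs by 0.43 (exact permutation p = 0.0159, adjusted 0.0265), or by 0.44 without embryos 1 and 3 (p = 0.0952, the smallest possible). With 2 Mb in place of 5 Mb the distal minus proximal difference was 0.10 over the 9 (exact permutation p = 0.18).

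The single ends differed far more from each other than the lines did. In ESCs the end means ran from 2.48 ± 0.39 on chromosome 11 and 2.27 ± 0.38 on chromosome 15 to -2.36 ± 0.12 on chromosome 17 and -2.91 ± 0.18 on chromosome 18 (SD, n = 5). The ends of chromosomes 11 and 15 were also the earliest in MEFs (3.13 and 2.86) and those of 17 and 18 the latest (-3.42 and -3.20). The end of chromosome 15 holds the HoxC cluster and the type II keratins, and that of chromosome 17 had 4 coding genes, or 0.79 per Mb. Of the 19 ends, 13 were earlier than the rest of their chromosome in ESCs, 15 in NPCs, 13 in MEFs and 15 in XEN cells. Across the 19 ends coding genes per Mb correlated with ESC timing at a Pearson r of 0.73 (Spearman rank correlation 0.88) and with MEF timing at 0.57 (rank correlation 0.61), as a description over ends that share the same libraries.

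Some ends changed place between cell types by more than the shift between the column sets. Chromosome 2 fell from 1.56 ± 0.20 in ESCs to -0.03 ± 0.04 in MEFs. Chromosome 19 stood at -0.01 ± 0.20 in ESCs and at 2.45 ± 0.08 in MEFs, 1.53 in NPCs and 2.03 in XEN cells. Chromosome 8 stood at 0.17 ± 0.16 in ESCs and 2.22 ± 0.04 in MEFs, and chromosome 1 at -0.34 ± 0.16 and 1.02.

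**Figure D3:**
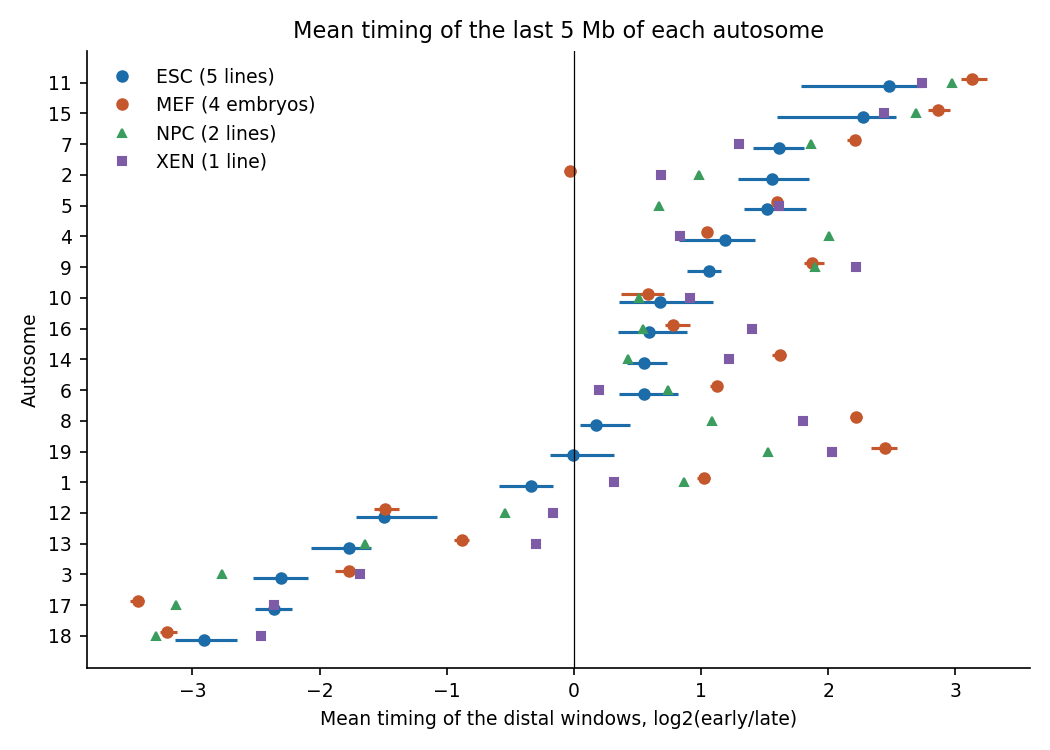
Mean timing of the distal windows of each autosome, sorted by the ESC mean, with points for ESCs, NPCs, MEFs and XEN cells and bars for the range over ESC lines and MEF embryos. The ends of chromosomes 11 and 15 are early and those of 17 and 18 late in each cell type, while chromosomes 2, 8 and 19 change place.

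Window by window, 788 of the 1719 distal windows were called between MEFs and ESCs, 518 earlier and 270 later in MEFs, or 45.8% against a background of 44.0% (30.3% earlier and 13.7% later). The split depended on the scaling, with 295 earlier and 478 later once columns were centred on their medians, and 335 and 388 under quantile normalization. Without embryos 1 and 3 the count was 792. The direction differed along the stretch: in the last 0.5 Mb 16 windows were earlier and 80 later (10 and 98 centred, 10 and 96 quantile), and at 1 to 5 Mb 460 were earlier and 162 later (254 and 326 centred, 293 and 252 quantile). Between NPCs and ESCs 555 were called, 332 earlier and 223 later in NPCs, or 32.3% against 32.5% of all windows (16.4% earlier and 16.1% later). In the last 0.5 Mb 4 were earlier and 70 later, and at 1 to 5 Mb 300 and 130. Over the whole distal stretch the shares called were thus near the background, while in the last 0.5 Mb they were 63.6% for MEFs and 49.0% for NPCs, mostly lower.

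The largest earlier shift in MEFs lay at chr8:127450001-129000000, over Nrp1, a co-receptor for semaphorins and VEGF, and Itgb1, the beta-1 integrin. That region was at -1.50, -2.09, -1.78, -1.77 and -1.81 in the ESC lines, 0.16 and 0.06 in NPCs and 2.17, 2.15, 2.12 and 2.13 in the MEFs. Its largest window difference was 5.74 (SE 0.186, limma adjusted p = 6.35e-13). At Nrp1 itself the ESC lines lay between -3.34 and -2.36 and the MEFs between 2.24 and 2.61. The same stretch rose in NPCs as well, by 2.59 over chr8:127600001-128750000, while chr8:128950001-129300000, which reaches the end of the same chromosome, fell by 2.42 in NPCs.

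Other regions of large earlier shift in MEFs were chr16:93050001-93500000, with no coding gene (3.60), chr5:151000001-151550000 at Stard13, which encodes a GTPase-activating protein (2.54), and chr1:194050001-194950000 at the semaphorin receptor gene Plxna2 and Cd34 (2.45). The called windows of this chromosome 1 region lay on average at -3.04 in ESCs, -0.60 in MEFs and -0.73 in NPCs. These are means of the region and not of its genes. The 7 windows 0.5 to 1 Mb from that end had a MEF mean of 0.13.

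Among the regions of largest later shift in MEFs, several reached the last window of their chromosome. They included chr18:90050001-90600000 at Tmx3, a thioredoxin-related transmembrane protein gene (-2.84), chr17:94200001-94900000 at Mettl4 and Gm20939 (-2.74) and chr10:129900001-130600000 at Vmn2r85, Vmn2r86 and Vmn2r87 (-2.71). A region short of the last window was chr2:177050001-177350000 at Gm14410 (-3.33), which was at 1.47, 2.02, 1.85, 0.98 and 2.22 in the ESC lines, -1.26 and -0.99 in NPCs and -2.04, -1.27, -1.20 and -1.97 in the MEFs. Each of the regions named for MEFs against ESCs kept its call at its largest window in all 17 alternatives, both other scalings included.

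NPC minus ESC shared regions with this list. Besides chromosome 8, NPCs were earlier at Plxna2 (chr1:193800001-194800000, 2.42), Rps6kc1 (chr1:190350001-190850000, 2.18), the troponin genes Tnni2 and Tnnt3 with Lsp1 (chr7:142100001-142800000, 2.11) and Itgb8, Macc1 and Abcb5 (chr12:116800001-119550000, 2.11). The chromosome 12 region was at -1.62 in ESCs, 0.49 in NPCs and -1.68 in MEFs, and XEN cells were at 0.65, so NPCs and XEN cells lay above both other cell types. NPCs were later at Gm14410 (-2.83), Mettl4 (-2.50), Tmx3 (-2.23) and chr2:178050001-178750000, which holds Zfp931, Phactr3 and the synaptonemal complex gene Sycp2 (-2.05). That last region was at 0.21 in ESCs, -1.85 in NPCs, -2.62 in MEFs and -1.84 in XEN cells.

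Culture medium was compared in F121-6 and F121-9, the lines grown both ways. The 8 single profiles were fitted with the line as a term, so calls rest on the spread between profiles and not between lines. Of the distal windows 223 were called (difference of at least 0.5), 111 earlier and 112 later on feeders than in 2i, or 13.0% against 12.8% of all windows (4.92% earlier and 7.86% later). In the last 0.5 Mb 25 were earlier on feeders and 0 later (34 and 0 centred, 22 and 0 quantile). Of the 19 last windows themselves 1 was called earlier on feeders and 0 later, and their median difference was -0.31. Their mean was 2.10 and 2.76 in 2i and 2.11 and 1.66 on feeders in F121-6, and 1.47 and 1.75 in 2i and 1.68 and 2.07 on feeders in F121-9, so the media overlapped in both lines. The mean of the last 0.5 Mb was 0.86 and 1.16 in 2i and 1.10 and 0.86 on feeders in F121-6, where the media overlapped, and 0.43 and 0.67 in 2i and 1.00 and 1.19 on feeders in F121-9, where they did not. Leaving out 1 profile at a time gave between 90 and 223 calls in all, the lowest without the first F121-6 profile in 2i.

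Regions of large shift to earlier on feeders were chr5:150850001-151650000 at Vmn2r18, Rfc3 and Stard13 (1.19) and chr17:92150001-92500000 (1.18), whose call was lost under quantile normalization. Later on feeders were chr10:125600001-126350000 at Lrig3 (-1.47), chr12:118350001-118800000 (-1.36) and chr1:192300001-192750000 at Hhat and the potassium channel gene Kcnh1 (-1.06). At Lrig3 the 4 profiles in 2i lay between -0.64 and -0.37 and the 4 on feeders between -2.21 and -1.71.

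The difference between alleles is given as 129 minus Cas, so a positive value means an earlier 129 allele. The share of distal windows with a difference of at least 0.5 in either direction was 40.8%, 35.4%, 27.9%, 41.0% and 37.4% in the ESC lines, against 38.1%, 37.8%, 28.6%, 35.2% and 32.8% of the other windows. It was 17.0% and 17.5% in NPCs, against 21.2% and 19.2% of the other windows, and 20.4%, 20.2%, 23.2% and 18.8% in MEFs, where the other windows lay between 19.5% and 20.8%. Distal minus rest was 1.99 ± 3.48 percentage points (SD, n = 5) in ESCs and 0.45 ± 1.84 (SD, n = 4) in MEFs, which did not pass the exact sign-flip permutation test (p = 0.203). That outcome depended on the setting: the mean over both was 1.31, against 2.07 with 2i profiles only (exact permutation p = 0.0273), 2.50 with 1 profile per line or embryo (exact permutation p = 0.0078) and, with the opposite sign, -3.13 with 2 Mb in place of 5 Mb (exact permutation p = 0.043). The alleles of V6.5, from C57B6 and 129, differed by this much in 2.90% of distal and 3.67% of other windows, and those of XEN cells in 31.6% and 33.0%, so the distal share was the lower one in NPCs, V6.5 and XEN cells.

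By distance the ESC share was 27.5% in the last 0.5 Mb, 32.1% in the next 0.5 Mb, 42.7% at 2 to 3 Mb and 38.6% at 4 to 5 Mb. The NPC share went the other way, from 31.1% and 31.5% in the last Mb to 9.5% at 2 to 3 Mb and 20.2% at 4 to 5 Mb. NPC repeat profiles differed by an SD of 0.545 in the last 0.5 Mb, above the 0.35 to 0.51 of the other bins, and the part of that spread in the share was not tested. The mean allelic difference of distal minus other windows was -0.04 ± 0.01 (SD, n = 5) in ESCs and 0.03 ± 0.01 (SD, n = 4) in MEFs, a difference of 0.07 (exact permutation p = 0.0159, adjusted 0.0265), or 0.08 without embryos 1 and 3 (p = 0.0952).

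**Figure D4:**
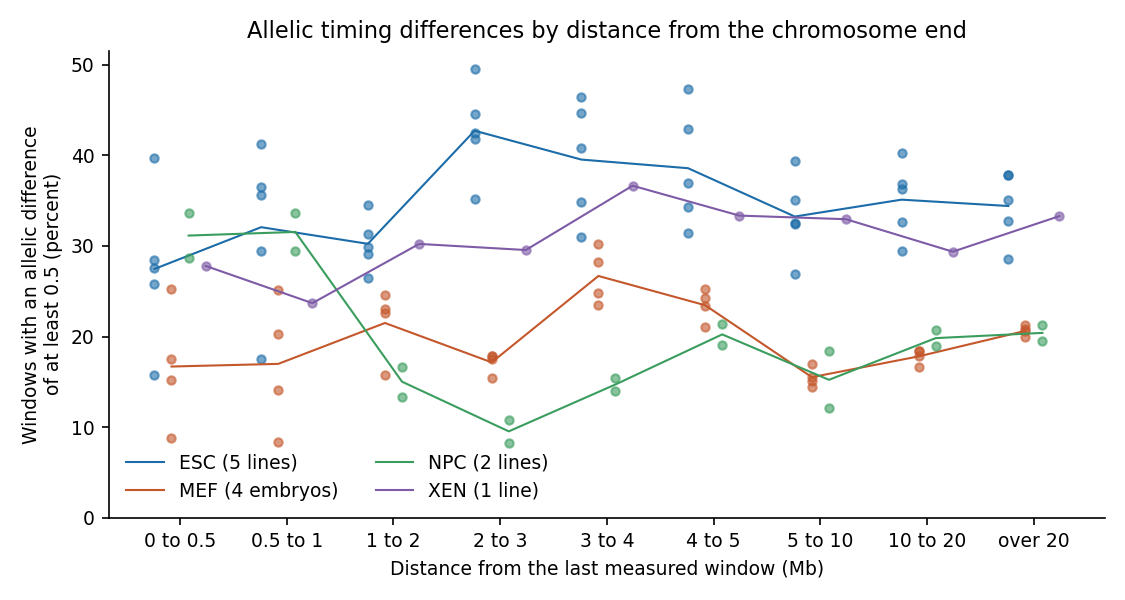
Share of windows, in percent, with a difference of at least 0.5 between alleles, against distance from the end in Mb, with a point for each line or embryo and a line through the mean of each cell type. Mean ESC shares lie between 27.5% and 42.7% in the distal 5 Mb, and mean NPC shares are highest in the last Mb.

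In the fit, 484 distal windows were called between alleles in ESCs (225 with 129 earlier, 259 with Cas earlier), or 28.2% against a background of 25.2% (13.2% with 129 and 11.9% with Cas earlier). MEFs had 223 (118 and 105), 13.0% against 12.9% (5.5% with 129 and 7.36% with Cas earlier), and 100 without embryos 1 and 3. NPCs had 81 (63 and 18), 4.71% against 4.71% (2.47% with 129 and 2.24% with Cas earlier), of which 24 of 151 lay in the last 0.5 Mb, 22 with 129 earlier. These were concentrated at few ends. The ends of chromosomes 5 and 6 held 15 and 14 of the 81, all with 129 earlier. On chromosome 6, 8 of these formed 1 region within the last 0.5 Mb. The NPC count rested on both lines: it was 36 (22 and 14) without the F121-9 NPCs and 38 (19 and 19) without the Cas129 NPCs, with 10 and 8 calls in the last 0.5 Mb, all with 129 earlier. The ESC calls ran in blocks along single ends. All 36 calls at the end of chromosome 4 and all 27 at that of chromosome 3 had 129 earlier, and all 36 at that of chromosome 14 had Cas earlier. Chromosome 17 had 35 of 41 with 129 earlier and chromosome 6 33 of 37 with Cas earlier, while the ends of chromosomes 10, 11 and 18 had 5, 5 and 3 calls. Of the 19 last windows 2 were called between alleles in ESCs, with 129 earlier on chromosome 1 (1.25, limma adjusted p = 0.00196) and Cas earlier on chromosome 17 (-0.80, limma adjusted p = 0.0474).

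The ESC regions with the earlier 129 allele included chr12:114900001-115100000, within the immunoglobulin heavy chain variable genes (1.38). There the difference was 2.21, 0.78, 0.72, 1.57 and 1.64 in the ESC lines, 0.29 and 0.71 in NPCs and -1.18, 0.18, 0.04 and -0.02 in MEFs, with a largest window difference of 1.89 (SE 0.245, limma adjusted p = 3.52e-05). Each ESC line lay above each MEF embryo.

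Other ESC regions with 129 earlier were chr4:153300001-154900000, which holds Ajap1, A430005L14Rik and the DNA fragmentation factor gene Dffb (1.02), and chr15:99600001-99850000 at Cox14, Gpd1 and Smarcd1. The latter, with a mitochondrial assembly factor, a glycerol-3-phosphate dehydrogenase and a subunit of the BAF remodelling complex, had 129 earlier in each cell type: 1.16, 1.14, 1.04, 1.36 and 1.24 in the ESC lines, 0.93 and 0.84 in NPCs, and 0.78, 0.93, 1.23 and 1.43 in MEFs. In XEN cells, where C57B6 takes the place of 129, it was 1.13, and in V6.5 (129 minus C57B6) 0.08. It was also the first region of the NPC result (1.05 over chr15:99650001-99850000, lost without the F121-9 NPCs) and of the MEF result (1.20 over chr15:99550001-99800000, at Asic1, Smarcd1 and Racgap1).

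Cas was earlier in ESCs at chr5:149300001-150000000 over B3glct, Hsph1 and Wdr95 (-1.48), at chr14:119700001-120150000 over Oxgr1 and Hs6st3 (-1.29) and at chr6:145300001-146950000 over Tuba3b, Rassf8 and Bhlhe41 (-1.25). It was also earlier at chr9:122100001-122750000 over Abhd5, Ano10 and Snrk (-1.13) and at chr16:96550001-96950000 over Dscam, a neural adhesion gene (-1.01). The chromosome 5 region was at -1.39, -0.77, -1.49, -1.62 and -2.11 in the ESC lines and between -0.20 and 0.10 in the MEFs. The chromosome 9 region was at -1.31, -1.37, -1.07, -0.88 and -1.02 in the ESC lines and at 0.56, 0.48, 0.36 and 0.43 in the MEFs. The groups did not overlap in either region.

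At Bhlhe41, which encodes a circadian transcriptional repressor and lies 3.7 Mb from the end of chromosome 6, the allelic difference was -2.19, -2.32, -2.14, -1.65 and -1.83 in the ESC lines (-2.02, SE 0.120, limma adjusted p = 5.17e-08). It was -0.54 and -0.16 in NPCs and between -0.01 and 0.50 in MEFs. Its timing stood at -0.99 in ESCs and 2.84 in MEFs, a difference of 3.83 (SE 0.192, limma adjusted p = 5e-11). Prdm16, a transcription factor of brown fat and blood stem cells on chromosome 4, had the opposite allelic order in ESCs, at 1.60, 1.54, 1.04, 1.71 and 1.24 (1.43, SE 0.106, limma adjusted p = 2.74e-07).

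**Figure D5:**
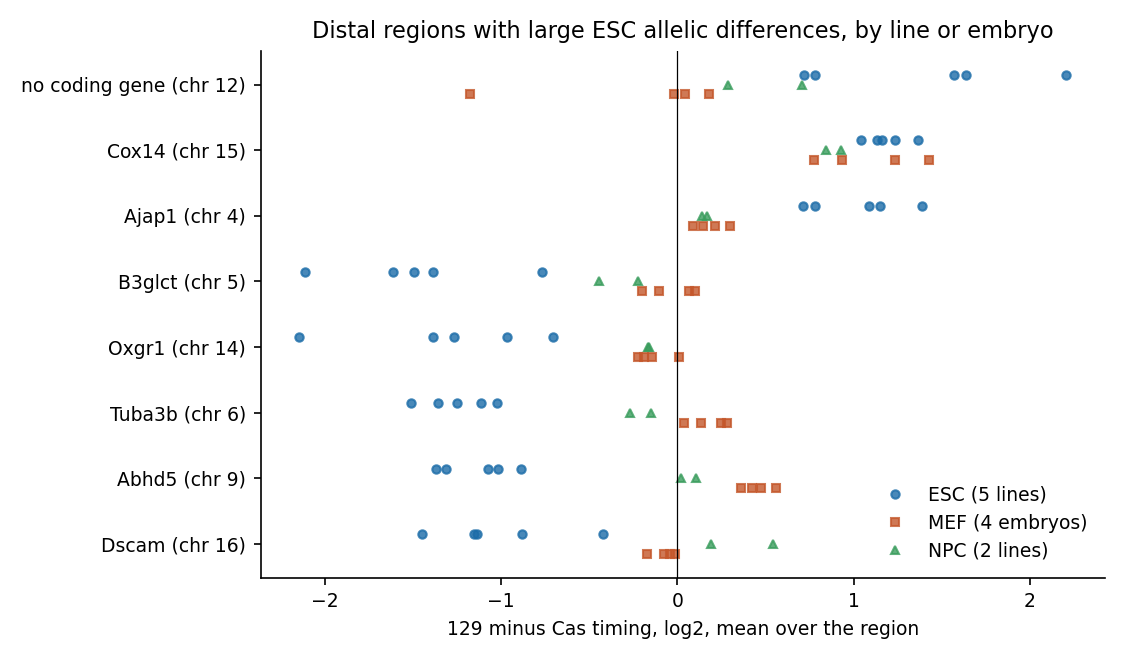
Allelic difference (129 minus Cas, read as log2) in each line and embryo at the distal regions of large ESC difference named in the text. The ESC lines lie away from 0 on 1 side in each region, and only the chromosome 15 region has the MEFs on the same side at similar size.

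In NPCs 129 was also earlier at chr5:150850001-151750000 (Vmn2r18, the clamp loader gene Rfc3 and Stard13, 1.03) and at chr6:149100001-149500000 (Amn1, Etfbkmt and Resf1, 0.94, lost without the F121-9 NPCs). Cas was earlier at chr12:116050001-116650000 over Esyt2, Wdr60 and the condensin II gene Ncapg2 (-1.04). In MEFs 129 was earlier at chr13:116450001-117500000 over Parp8 and Emb: 1.12, 1.28, 1.24 and 1.05 in the embryos, against -0.60, -0.47, -0.48, -0.38 and -0.82 in the ESC lines, with the opposite order in ESCs. It was also earlier at chr13:119350001-119700000 over 4833420G17Rik, Paip1 and Tmem267 (0.94). In MEFs Cas was earlier at chr12:115800001-116100000 over Zfp386 and the VIP receptor gene Vipr2 (-0.97) and at chr18:86950001-87250000 (-0.88).

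Genes of the distal windows were counted by lists and are set beside the shares called over all windows. For MEFs against ESCs these were 30.3% earlier and 13.7% later as deposited, 18.6% and 28.4% centred and 20.6% and 22.3% under quantile normalization, with medians of 0.38, -0.26 and -0.06. For NPCs they were 16.4% earlier and 16.1% later. Of 23 type II keratins and Krt18, which build the cytoskeleton of epithelia, 18 were earlier and 0 later in MEFs than in ESCs (6 and 0 centred, 12 and 0 quantile), with a median difference of 1.53 as deposited, and 11 earlier and 0 later in NPCs (background 30.3% earlier in MEFs and 16.4% in NPCs). Krt5, a keratin of basal epithelial cells, was at -0.20, -0.96, -0.34, -0.58 and 0.77 in the ESC lines and 1.66, 1.72, 1.55 and 1.44 in the MEFs (1.85, SE 0.263, limma adjusted p = 1.03e-05). None of the 9 HoxC genes was called in any comparison, with ESC levels of 2.36 to 2.62 and MEF levels of 3.08 to 3.26.

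Of the 19 imprinted genes of distal chromosome 7, 10 were earlier and 0 later in MEFs (6 and 0 centred, 8 and 0 quantile; background 30.3% earlier and 13.7% later), with a median difference of 1.02 as deposited. H19, an imprinted non-coding RNA, was at -0.59, 0.13, 0.11, -0.23 and 0.48 in the ESC lines, 2.81 and 2.74 in NPCs and 2.61, 2.59, 2.59 and 2.76 in the MEFs (2.66, SE 0.190, limma adjusted p = 3.33e-09), and the growth factor gene Igf2 at -0.27, 0.46, 0.32, 0.17 and 0.96 in the ESC lines and between 2.06 and 2.35 in the MEFs. The alleles of 0 of the 19 were called in ESCs (background 25.2%) and of 2 in MEFs (background 12.9%), Cd81 and Tssc4, which share 1 window (0.50).

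Of 77 olfactory receptor genes, the receptors of smell, 0 were earlier and 32 later in MEFs (40 centred, 34 quantile) and 0 earlier and 26 later in NPCs, against backgrounds of 13.7% later in MEFs and 16.1% in NPCs. The 19 on chromosome 7 had a median of 0.96 in ESCs and -0.55 in MEFs, and all 19 were called later in MEFs. The 58 on chromosome 10 were late in both (-2.19 and -2.87), and 13 were called. Genes of 1 cluster share windows, so these are counts of genes and not of separate events.

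Of 6 integrin and basement membrane genes, 3 were earlier in MEFs and 3 in NPCs, with 0 later as deposited (2 earlier and 1 later in MEFs when centred), against backgrounds of 30.3% earlier in MEFs and 16.4% in NPCs. Itgb1 was at -1.48, -1.58, -1.61, -1.45 and -1.32 in the ESC lines, -0.28 and -0.41 in NPCs and 2.22, 2.29, 2.15 and 2.09 in the MEFs. Itgb8, the beta-8 integrin gene 0.6 Mb from the end of chromosome 12, lay at -3.50 to -2.80 in ESCs, 0.57 and 0.02 in NPCs and -1.20 to -0.98 in MEFs. Among 10 growth factor and receptor genes 3 were earlier in MEFs (2 after either other scaling), which is near the background of 30.3%, and 2 were earlier and 1 later in NPCs (background 16.4% and 16.1%).

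Of 13 genes for DNA replication, repair and the cell cycle, 1 was earlier and 1 later in MEFs (1 and 3 centred, 1 and 2 quantile), and 0 earlier and 3 later in NPCs. The background was 30.3% earlier and 13.7% later in MEFs and 16.1% later in NPCs. The 3 were Brca2, a homologous recombination gene, the cohesin regulator gene Pds5b and Ncapg2. Brca2 was at 2.37, 2.93, 2.48, 2.48 and 2.10 in the ESC lines and at 0.80 and 1.06 in NPCs (-1.54, SE 0.211, limma adjusted p = 1.54e-05), and between 1.04 and 1.22 in MEFs.

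Of 19 developmental transcription factor genes, 7 were earlier and 0 later in NPCs and 4 and 0 in MEFs (1 and 5 centred, 2 and 3 quantile, so the MEF direction depended on the scaling). The background was 16.4% earlier in NPCs and 30.3% in MEFs. Isl1, a homeobox gene of motor neurons and heart, moved from -3.72 in ESCs to -1.88 in NPCs and -2.19 in MEFs and stayed late. Of 17 neural adhesion, synapse and channel genes, 3 were earlier and 1 later in both NPCs and MEFs (2 and 6 in MEFs when centred), which is near the 16.4% earlier of all windows in NPCs and below the 30.3% in MEFs. Of 17 immune genes 1 was earlier and 3 later in MEFs (0 and 6 centred or quantile), against a background of 30.3% earlier and 13.7% later. The 45 immunoglobulin heavy chain variable genes had 10 calls with 129 earlier and 14 with Cas earlier in ESCs (background 13.2% and 11.9%), and 20 with Cas earlier in MEFs (background 7.36%). These genes lie side by side and share windows.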

How the data were processed

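Repli-Seq libraries of early and late S phase had been made from hybrid mouse cells. Per the file headers and values, the authors deposited a log ratio of early over late signal per allele in 50 kb windows, read here as log2. The base is not stated. Per the submitters' processing notes reads had been handled with Bowtie2, bedtools and SAMtools (versions not given) on mm10. Allele assignment, smoothing and scaling are not given in the sources used here. The table gives no read counts, so depth is unknown and no counting interval is given. No per-sample column was left unused, and 2327 windows off the autosomes were left out.

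The timing (mean of both alleles) and the allelic difference were averaged per line or embryo and fitted with limma 3.58.1 (R 4.3.3) across all autosomal windows, with the cell type as the only term, over 5 ESC lines, 2 NPC lines and 4 MEF embryos. Calls needed a change of 0.5 or more (alleles, medium) or 1 or more (cell types) with p under 0.05 after Benjamini-Hochberg adjustment. Medium was fitted over 8 profiles with the line as a term. Distal means were taken per chromosome and then over 19 chromosomes and tested by exact two-sided permutation over lines and embryos, with adjustment over 5 measures. The smallest p was 0.003906 for sign flips and 0.015873 for ESCs against MEFs. The fits were tested on simulated data.

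Regions were runs of like-signed calls, bridging up to 2 windows and spanning 200 kb or more. Named are those with the greatest mean change, 5 per direction for ESC alleles and cell types and 3 otherwise, where that many existed, with up to 3 nearest coding genes, and list genes read in the window of their midpoint. Some regions that this rule chose are not reported here. The windows, lists and tests were chosen with earlier results of these data known. Alternatives were median centring, quantile normalization, other sizes, other distances, replicate or line blocks, 2i profiles alone, and lines or embryos left out.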

Additional observations from a re-analysis of the deposited data

Results flagged for a closer look

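Among 76 sets of 4 or 5 lines or embryos tested at single chromosome ends for 1 value far from the others, 8 held one, and chance gives about 1 in 20. None of 10 sets over the distal measures did. F121-6 ESCs were later than the other lines at the ends of chromosome 11 (1.79, others 2.59 to 2.74) and chromosome 15 (1.60, others 2.40 to 2.53), the earliest ends in ESCs. MEF embryo 4 was earlier at the end of chromosome 16 (0.91, others 0.72 to 0.75). In the allelic difference the lowest value stood apart at 5 ends. These were -0.18 in F121-6 on chromosome 8 (others -0.06 to -0.02), -0.26 in F121-9 on chromosome 9 (others -0.11 to -0.05) and -0.42 in Cas129 on chromosome 13 (others -0.27 to -0.24). The other two were -0.29 in F121 on chromosome 18 (others -0.06 to 0.03) and -0.17 in MEF embryo 2 on chromosome 19 (others -0.02 to 0.00).

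MEFs and ESCs differed in 3 distal measures by the exact permutation test: distal minus proximal timing (0.43), distal minus rest allelic difference (0.071) and the step between the last and the next 0.5 Mb (-1.58), the last one noticed in these data before it was tested.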

How the results depend on the processing

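Distal minus rest and distal minus proximal timing stayed above 0 in each setting run, though distal minus proximal was 0.095 (exact permutation p = 0.18) with 2 Mb. MEF minus ESC in distal minus rest timing, near 0 as reported, was -0.0053 under quantile normalization, -0.062 with all windows pooled, -0.28 with 2 Mb, 0.13 without the last 500 kb, and -0.026 to 0.025 with 1 line or embryo left out (-0.000049 without F121, -0.026 without F121-6, -0.0049 without F121-9 and -0.0020 without embryo 4). The distal minus rest allelic share was -0.145 percentage points by the median over chromosomes, 2.07 with 2i profiles only (p = 0.0273 by the exact permutation test, now past 0.05), -3.13 with 2 Mb (exact p = 0.043), -0.882 with 10 Mb, -0.083 for differences of at least 1 and 2.50 with 1 profile per line (exact p = 0.0078). Its MEF minus ESC value was 0.495 under quantile normalization, 2.85 with 2 Mb and -2.47 with 10 Mb (exact p = 0.0159). The mean allelic difference was 0.0047 with 2 Mb and 0.011 with 10 Mb. Without embryos 1 and 3, MEF minus ESC was 0.436 (distal minus proximal), 0.079 (allelic) and -1.61 (step), each at the smallest p possible (0.0952). Other leave-one-out ranges were 0.397 to 0.461, 0.064 to 0.074 and -1.62 to -1.54 for these.

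With no minimum size, calls were 764 between ESC alleles, 402 between MEF alleles and 1243 for MEF minus ESC. At 2 times the size they were 135 (ESC alleles), 28 (NPC alleles), 26 (MEF alleles), 309 (MEF minus ESC) and 189 (NPC minus ESC). Between MEF alleles 100 were called without embryos 1 and 3. With 1 line, embryo or profile left out, counts ran from 464 to 516 (ESC alleles), 36 to 103 (NPC alleles), 209 to 232 (MEF alleles), 776 to 806 (MEF minus ESC), 526 to 570 (NPC minus ESC) and 90 to 223 (medium), and last windows from 18 to 18 (MEF minus ESC) and 8 to 17 (NPC minus ESC). The cause of these changes was not tested, beyond fewer samples or another size asked.

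Replicate numbers did not pair profiles: over 66 pairs of groups, the correlation of same-numbered profiles ran from -0.071 to 0.039 for allelic differences and from -0.397 to 0.304 for timing. With the replicate number as a block, calls were 454, 68 and 223 between ESC, NPC and MEF alleles, 823 for MEF minus ESC, 551 for NPC minus ESC and 168 for medium. The steps near the end and the last windows were added after the data had been seen. Unknown depth limits the single windows next to the ends. In the last 0.5 Mb repeats spread most in the allelic difference, but not in timing (ESC SD 0.339, against 0.342 at 4 to 5 Mb).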

Other observations

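The 12 zinc finger genes of the distal windows gave 2 earlier and 1 later call in MEFs than in ESCs (1 and 2 after either other scaling), against 30.3% earlier and 13.7% later over all windows. Among genes of the last 0.5 Mb, the transcription factor gene Sox18 was early in both ESCs (2.87) and MEFs (2.24), as was Agrn, which encodes agrin (2.81 and 2.39), while the neuronal transcription factor gene Neurod4 was at -0.05 in ESCs and -2.82 in MEFs. Tcstv3 was at 2.39 in ESCs and -0.78 in MEFs, and Metrnl went the other way, from 1.42 to 2.64. These genes were picked after their values were seen.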
